A study of Mus musculus with 9 samples.

Results

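The Slc22 genes encode membrane carriers for organic ions. Described here are 9 of them in mouse liver: Slc22a3, Slc22a7, Slc22a15, Slc22a18, Slc22a23, Slc22a26, Slc22a27, Slc22a28 and Slc22a30. The list was selected on earlier intensity differences between db/db and BKS liver on these same arrays. Their differences between the groups are therefore given as a description, without a p-value. Probe sets were found through the gene annotation of the array, which names 10 probe sets for 7 of the 9 genes and none for Slc22a3 and Slc22a28. Another probe set carries the symbols of Slc22a30 and Slc22a29 together. In all, 18193 genes had a probe set of their own, 14 of them other members of the Slc22 family.

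Total RNA from the livers of male mice, aged 14 weeks, was hybridised to Affymetrix arrays with 1 colour. The 4 db/db mice carried the Leprdb mutation of the leptin receptor on the BKS background (BKS.Cg-Leprdb) and had become obese and diabetic with a fatty liver, according to the study's design. The 5 BKS mice (C57BL/KSlepr+/+) were littermates with the intact receptor gene, and all animals ate regular chow. The db mutation is carried in the whole body, so an effect of the receptor in liver cells and an effect of obesity and diabetes cannot be told apart. The sample labels carry numbers but do not state that every sample is a different mouse, so errors measure the spread between these samples. Fewer cells of a type and less RNA per cell cannot be told apart in whole liver.

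Slc22 proteins sit in the plasma membrane and fall into carriers of organic cations, of carnitine and other zwitterions, and of organic anions. In liver, members on the sinusoidal face of hepatocytes take up drugs, hormones and metabolites from the blood, and other carriers then export them into bile or back into blood. In rodents the organic anion branch has expanded into a row of closely related genes on mouse chromosome 19, and several of these have a sex-biased level in liver or kidney. Substrates are known for only some of them.

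The promoters of 5 neighbouring genes of the chromosome 19 row are shown because these genes include the largest differences and because the sequences are alike to very different degrees. Each runs from 250 bases before to 50 bases after the start of the gene (RefSeq, GRCm38.p6, a C57BL/6J reference and not the sequence of these mice). They lie at chr19:7802618-7802917, minus strand for Slc22a26, chr19:7965978-7966277, minus strand for Slc22a27, chr19:8131933-8132232, minus strand for Slc22a28, chr19:8218851-8219150, minus strand for Slc22a29 and chr19:8405056-8405355, minus strand for Slc22a30. In Slc22a26 and Slc22a27 capitals mark motif matches described further on. In Slc22a28 they mark bases that differ from the aligned Slc22a30 promoter, in Slc22a30 bases that differ from Slc22a28, and in Slc22a29 bases that differ from Slc22a30 or face a gap in it. Ends beyond the aligned stretch are in lower case.
Slc22a26: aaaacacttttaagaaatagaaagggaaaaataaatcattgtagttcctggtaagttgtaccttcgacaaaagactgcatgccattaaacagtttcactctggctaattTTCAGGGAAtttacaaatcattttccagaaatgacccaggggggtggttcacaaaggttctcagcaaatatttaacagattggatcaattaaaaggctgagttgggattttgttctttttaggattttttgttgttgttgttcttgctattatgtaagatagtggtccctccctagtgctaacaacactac
Slc22a27: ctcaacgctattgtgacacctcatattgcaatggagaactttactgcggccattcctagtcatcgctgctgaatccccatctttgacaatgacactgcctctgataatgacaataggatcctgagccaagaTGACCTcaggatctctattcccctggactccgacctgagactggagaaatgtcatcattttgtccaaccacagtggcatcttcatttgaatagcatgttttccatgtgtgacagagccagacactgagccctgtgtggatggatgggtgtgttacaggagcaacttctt
Slc22a28: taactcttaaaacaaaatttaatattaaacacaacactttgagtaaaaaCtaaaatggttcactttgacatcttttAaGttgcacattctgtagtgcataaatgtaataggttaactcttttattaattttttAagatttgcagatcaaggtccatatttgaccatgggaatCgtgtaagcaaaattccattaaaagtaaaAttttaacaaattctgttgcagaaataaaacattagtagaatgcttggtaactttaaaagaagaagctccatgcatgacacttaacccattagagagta
Slc22a29: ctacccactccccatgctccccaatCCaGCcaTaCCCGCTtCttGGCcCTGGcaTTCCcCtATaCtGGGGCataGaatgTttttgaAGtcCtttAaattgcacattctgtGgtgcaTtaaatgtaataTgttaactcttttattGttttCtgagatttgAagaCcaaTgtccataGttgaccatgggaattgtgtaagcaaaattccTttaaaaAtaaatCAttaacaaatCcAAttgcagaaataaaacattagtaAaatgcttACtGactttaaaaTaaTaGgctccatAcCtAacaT
Slc22a30: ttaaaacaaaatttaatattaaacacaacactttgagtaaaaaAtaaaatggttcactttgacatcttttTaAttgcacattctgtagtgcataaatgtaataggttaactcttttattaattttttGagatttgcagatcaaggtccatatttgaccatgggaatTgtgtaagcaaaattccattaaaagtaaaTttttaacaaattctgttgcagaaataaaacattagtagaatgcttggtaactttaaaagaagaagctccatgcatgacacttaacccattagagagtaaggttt

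The promoters of Slc22a28 and Slc22a30 were nearly the same, with 288 of 294 aligned bases identical (98.0%). The promoter of Slc22a29 matched that of Slc22a30 at 211 of 271 aligned bases (77.9%) and that of Slc22a28 at 202 of 281 (71.9%). Slc22a26 and Slc22a27, further along the row, were aligned with each other at 48.5% identity. Of 36 pairs among the 8 listed genes with a promoter in the table and Slc22a29, 25 others had at least 150 aligned bases, and their identity lay between 40.0% and 55.9%.

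Slc22a27 encodes an organic anion transporter of the chromosome 19 row. Its deposited intensity was 638.5, 650.3, 1175 and 589.9 in db/db livers 1 to 4, against 3.3, 69.7, 5.2, 15.2 and 41.6 in BKS livers 1 to 5. Every db/db array lay far above every BKS array, and db/db 3 stood apart at the top. In BKS livers the probe set ranked on average at the 21.3 percentile of all probe sets, in the dim range of the array. On the normalized log2(intensity + 16) scale it averaged 9.55 ± 0.48 in db/db and 5.22 ± 0.95 in BKS livers (SD, n = 4 and 5). The difference was 4.34 (SE 0.46, 95% interval 3.34 to 5.33), or 20.2-fold higher in db/db. Because the BKS values are so dim, the size depends on the amount added before the logarithm, with a log2 difference of 5.45 when 1 was added and 3.17 when 64 was added. The name of the probe set ends in x_at, which marks probes that may bind other transcripts as well, and the part of close relatives in this signal was not tested.

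Slc22a26 is the neighbouring transporter gene of the same row. Its brighter probe set read 359.2, 364.3, 343.2 and 347.5 in db/db livers, against 50.7, 92.9, 80.8, 37.3 and 14.8 in BKS livers. The db/db values were almost equal and lay above all BKS values. The difference was 2.56 on the log2 scale (SE 0.35, 95% interval 1.80 to 3.32), 5.89-fold higher in db/db, and it was 1.89 when 64 was added. A second probe set of the gene gave 355.5, 486.1, 344.1 and 179.2 in db/db livers, against 34.9, 75.8, 80.8, 19.2 and 25.0 in BKS livers. It also separated the groups, with a difference of 2.61 (SE 0.39, 95% interval 1.78 to 3.45).

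Slc22a30, at the other end of this part of the row, was bright in both groups. Its own probe set read 3725, 2757, 2841 and 3038 in db/db livers, against 3443, 4319, 4051, 3974 and 4216 in BKS livers. The groups overlapped, since db/db 1 lay above BKS 1. The log2 difference was -0.41 (SE 0.12, 95% interval -0.67 to -0.15), or 1.33-fold lower in db/db. Without db/db 1 it was -0.50.

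**Figure D1:**
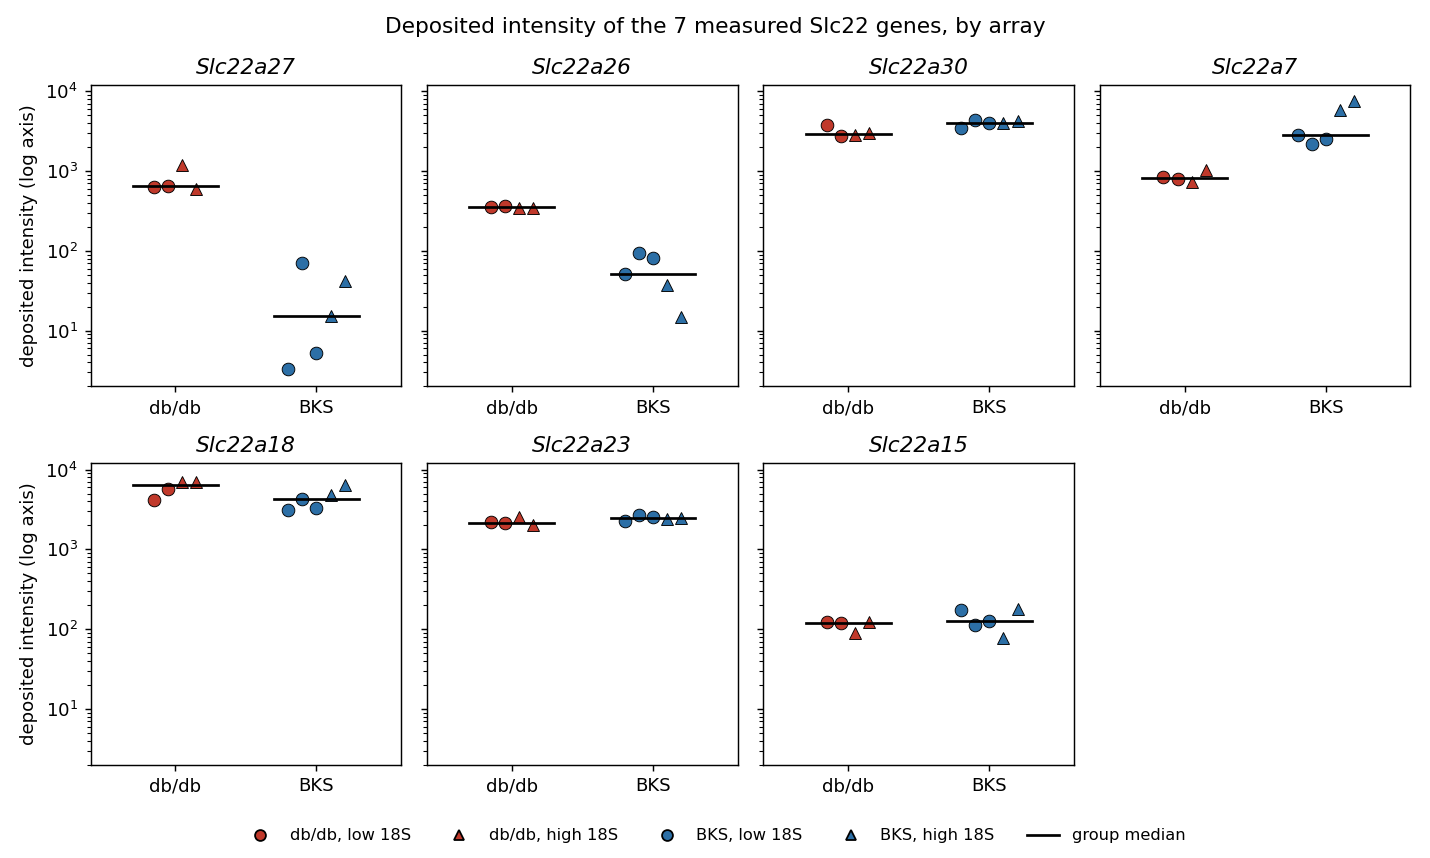
Deposited intensity (log axis) of the 7 measured genes on each array, for 4 db/db and 5 BKS livers, with the probe set used for each gene. Lines are group medians, and triangles are arrays with a high signal of the 18S ribosomal RNA controls. Slc22a27, Slc22a26 and Slc22a7 separate the groups completely, as do 9.15% of all genes, and the other 4 genes overlap.

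The probe set that carries the symbols of both Slc22a30 and Slc22a29 behaved differently from the one of Slc22a30 alone. It read 406.2, 339.6, 1133 and 789.1 in db/db livers, against 32.6, 55.5, 29.8, 59.3 and 48.2 in BKS livers. All db/db arrays lay above all BKS arrays, and the log2 difference was 3.37 (SE 0.40, 95% interval 2.51 to 4.22), 10.3-fold higher in db/db. The probe set named for Slc22a29 alone, a further transporter gene of the row, read 527.2, 388.8, 1538 and 854.4 in db/db livers, against 7.4, 37.6, 53.0, 79.2 and 5.8 in BKS livers. On both probe sets db/db 3 was highest, db/db 4 second and db/db 2 lowest, and on the Slc22a30 probe set db/db 1 was highest. Slc22a29 rose by 4.04 on the log2 scale (SE 0.53, limma adjusted p = 5.37e-04), 16.5-fold, and it too has a probe set of the x_at kind. Its BKS values were dim, and the log2 difference was 4.89 when 1 was added and 3.02 when 64 was added. How much of the signal of the joint probe set comes from either gene cannot be told from these data.

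**Figure D2:**
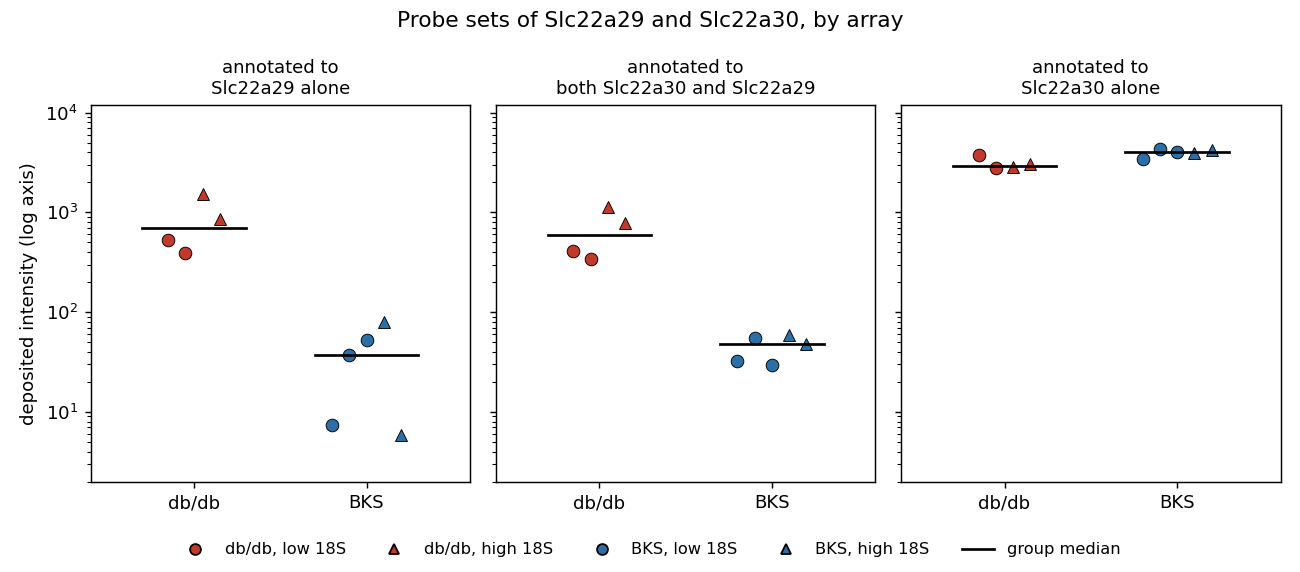
Deposited intensity (log axis) by array of the probe sets annotated to Slc22a29 alone, to both genes and to Slc22a30 alone, in 4 db/db and 5 BKS livers (lines, group medians). The joint probe set separates the groups as the Slc22a29 one does, from 339.6 to 1133 in db/db and from 29.8 to 59.3 in BKS. These 2 probe sets rank the db/db arrays alike but the BKS arrays differently. The Slc22a30 probe set stays between 2757 and 4319 on all arrays.

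The row on chromosome 19 was thus not uniform. In chromosomal order its protein-coding genes are Slc22a19, Slc22a26, Slc22a27, Slc22a28, Slc22a29, Slc22a30, Slc22a8 and Slc22a6. The log2 differences were -0.19 for Slc22a19, 2.56 for Slc22a26, 4.34 for Slc22a27, 4.04 for Slc22a29, -0.41 for Slc22a30, -0.06 for Slc22a8 and 0.45 for Slc22a6. Among the measured protein-coding genes the 3 far above 0 follow one another, with Slc22a28, for which no value can be given, between Slc22a27 and Slc22a29. The probe sets of Slc22a27 and Slc22a29 are of the x_at kind and may bind close relatives in the row. The 3 values may therefore not be independent, which was not tested. Slc22a6 and Slc22a8 encode the main organic anion uptake carriers of the kidney, and both were dim here, with median intensities of 39.7 and 62.8 in db/db and of 28.1 and 52.2 in BKS livers. Slc22a29, 16.5-fold higher in db/db, and Slc22a30, 1.33-fold lower, are the pair whose promoters share 77.9% of aligned bases.

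**Figure D3:**
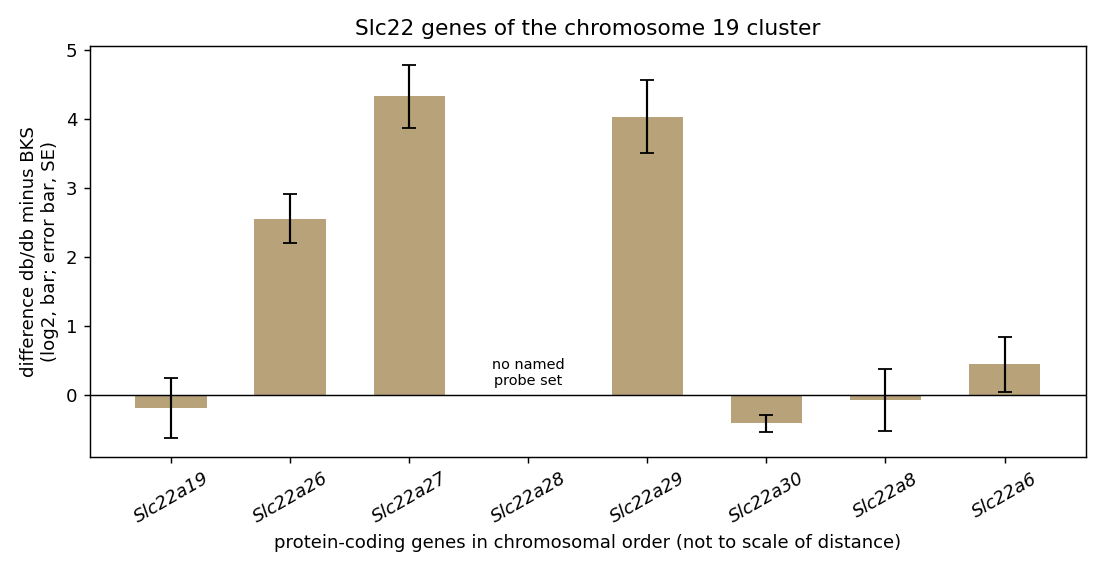
Log2 difference db/db minus BKS (bars, with SE) of the protein-coding genes of the chromosome 19 row in chromosomal order, distances not to scale. Slc22a26, Slc22a27 and Slc22a29 stand at 2.56 to 4.34, while Slc22a19, Slc22a30, Slc22a8 and Slc22a6 lie between -0.41 and 0.45. Slc22a28 has no value, and the x_at probe sets of Slc22a27 and Slc22a29 may bind close relatives.

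Short motifs were searched on both strands of each promoter window. The STAT5 motif ttcnnngaa, bound by a factor downstream of growth hormone, was found in Slc22a26 (141 bases before the start) and Slc22a15 (164 bases before it) and is present in 8.3% of all 32851 promoters in the table. The nuclear receptor half-site aggtca was found in Slc22a27, 119 bases before the start on the reverse strand, against 16.3% of all promoters. The HNF1 half-site gttaat was found in Slc22a29 alone, 29 bases before the start on the reverse strand, against 7.1% of all promoters. Neither the HNF4A motif caaagtcca (0.475% of all promoters) nor the TATA box tataaa (13.6%) was present in any of the 9 windows. No matches overlapped, and a match describes the letters only.

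Slc22a7 encodes the organic anion transporter OAT2, which hepatocytes carry on the side that faces the blood. Its probe set read 848.6, 785.6, 723.1 and 1021 in db/db livers, against 2860, 2178, 2534, 5765 and 7585 in BKS livers. All db/db arrays lay below all BKS arrays, and BKS 4 and BKS 5 were far above the other BKS livers. The normalized level was 9.74 ± 0.20 in db/db and 11.83 ± 0.74 in BKS livers, a log2 difference of -2.09 (SE 0.30, 95% interval -2.73 to -1.44) or 4.24-fold lower in db/db.

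BKS 4 and BKS 5, together with db/db 3 and db/db 4, are the arrays on which the control probe sets for 18S ribosomal RNA were bright (at least 940.8, against at most 22.8 on the other 5 arrays, geometric means). The labels give no batch. Within the low 18S arrays the difference of Slc22a7 was -1.64, and within the high 18S arrays it was -2.79. For Slc22a26 it was 2.17 and 3.13, for Slc22a29 3.43 and 4.61 and for the joint probe set 2.90 and 3.72, while Slc22a27 stood at 4.33 and 4.23. Whether these sizes depend on the 18S set was not tested.

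Slc22a18 lies in an imprinted region of chromosome 7 and encodes an orphan carrier. Its brighter probe set read 4119, 5642, 6983 and 7082 in db/db livers, against 3136, 4308, 3269, 4862 and 6442 in BKS livers. The groups overlapped, and on this probe set the high 18S arrays held the highest values in both. The log2 difference was 0.43 (SE 0.20, 95% interval 0.01 to 0.86). Its second probe set had a difference of 0.71 (SE 0.24, 95% interval 0.19 to 1.23), with 2632, 3113, 2099 and 2192 in db/db livers, against 1029, 2378, 1361, 1058 and 2213 in BKS livers. There the high 18S arrays did not hold the highest values. The arrays db/db 3 and db/db 4 were the lowest of their group, and BKS 4 was low while BKS 5 was high. The imprinted neighbours Cdkn1c, an inhibitor of the cell cycle, and Phlda2 stood at 1.08 (SE 0.45) and -0.91 (SE 0.49) and did not pass the test (limma adjusted p = 0.226 and 0.378).

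Slc22a23, an orphan carrier, varied little between arrays. It read 2186, 2128, 2539 and 2002 in db/db livers, against 2269, 2657, 2552, 2379 and 2448 in BKS livers. Only db/db 3 lay within the BKS range, and the log2 difference was -0.18 (SE 0.11, 95% interval -0.42 to 0.06). Slc22a15, which in humans carries zwitterions, read 124.7, 120.0, 90.1 and 122.3 in db/db livers, against 175.5, 113.8, 125.4, 77.9 and 180.5 in BKS livers. It ranked on average at the 56.8 percentile of all probe sets in db/db and the 58.1 percentile in BKS livers. The groups overlapped fully, with a log2 difference of -0.10 (SE 0.31, 95% interval -0.77 to 0.57). Its other probe set pointed the other way, at 0.46 (SE 0.46, 95% interval -0.52 to 1.44). Intervals of this width do not show that Slc22a15 was alike in the groups.

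Of the 7 measured genes, Slc22a26 and Slc22a27 passed the threshold of the fit over all genes in the upward direction (2.89% of all genes did) and Slc22a7 in the downward direction (2.6% of all genes). In either direction 5.49% of all genes passed (limma, Benjamini-Hochberg adjusted p under 0.05). The arrays of the groups did not overlap for the same 3 genes, and for 9.15% of all genes. Since the list was drawn up with this comparison known, nothing follows from these counts. The median log2 difference was -0.10 over the 7 genes and -0.0022 over all genes.

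The other 14 measured Slc22 genes include 2 that rose and none that fell (limma, 3 and 1 at an unadjusted p under 0.05). Over all genes 2.89% rose and 2.6% fell, and at the unadjusted threshold 8.76% were higher and 8.87% lower. Besides Slc22a29 this was Slc22a5, the carnitine transporter OCTN2, at 1176, 1458, 1847 and 1799 in db/db livers, against 735.0, 1014, 691.2, 740.7 and 679.0 in BKS livers (log2 difference 1.00, SE 0.17, limma adjusted p = 0.00362). All db/db arrays lay above all BKS arrays on this probe set. Its other probe set read 401.3, 545.6, 349.2 and 210.4 in db/db livers, against 109.5, 287.5, 249.5, 104.5 and 148.1 in BKS livers. There the groups overlapped, with a log2 difference of 1.15. The call was lost when every gene took its most variable probe set, here this one (limma adjusted p = 0.0926). It was also lost on the low 18S arrays alone (0.72, adjusted p = 0.144). Slc22a14, a carrier known from testis, stood at 1.23 (SE 0.38, adjusted p = 0.0851) with no overlap, but at a median intensity of only 56.7 in db/db and 11.4 in BKS livers. The others lay between -0.97 for Slc22a22, a prostaglandin carrier of mouse kidney, and 0.75 for Slc22a13, a kidney carrier of organic anions. Among them Slc22a2, the kidney cation transporter OCT2, was at -0.77 (SE 0.35), Slc22a21 at -0.33, Slc22a4, the ergothioneine carrier, at -0.20 and Slc22a16 at 0.34. Slc22a12, the urate carrier, and Slc22a17, a receptor for lipocalin-2, stood at -0.01 and 0.04. The median of these 14 was 0.02.

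**Figure D4:**
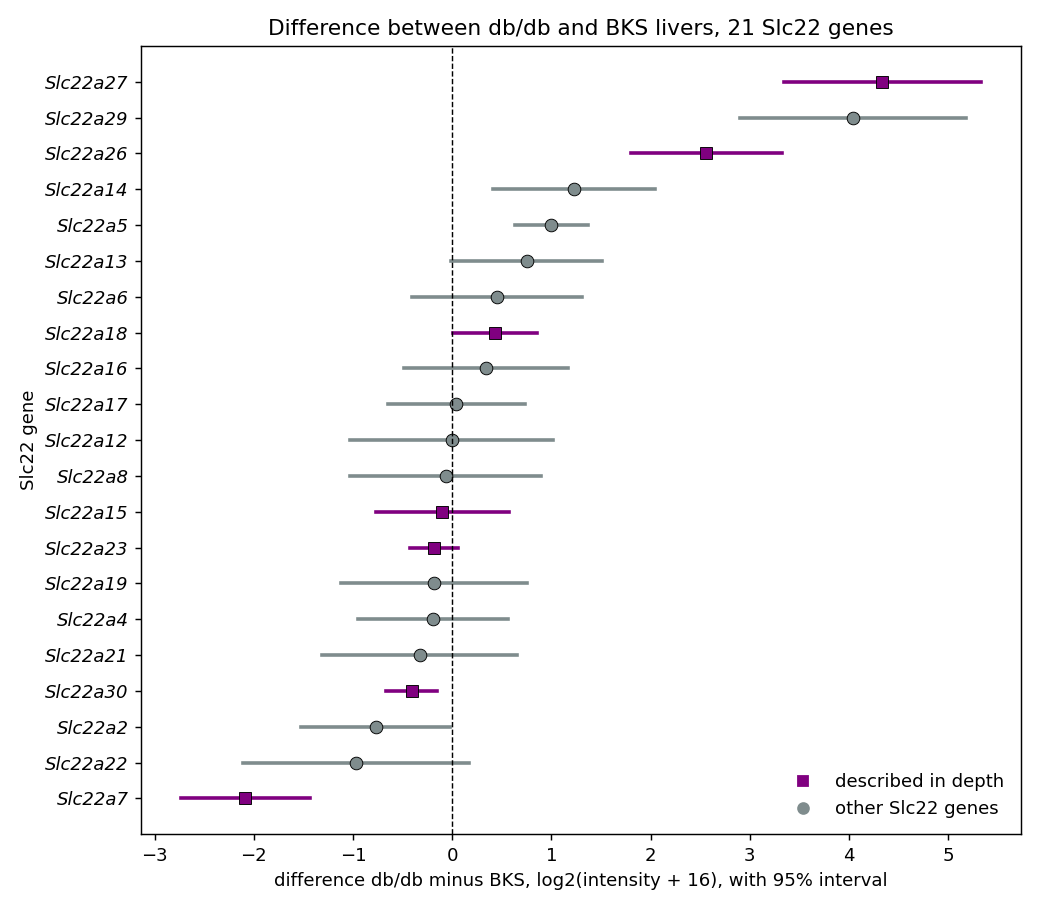
Log2 difference db/db minus BKS with its 95% interval for the 21 measured Slc22 genes, ordered by size, from Slc22a27 at 4.34 down to Slc22a7 at -2.09. Squares are the 7 genes described in depth and circles the other 14. Intervals of dim genes such as Slc22a22 are wide, and most of the 14 include 0.

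Some carriers outside the family, from lists drawn up for uptake and export of organic ions, also differed. Whether each shares substrates with Slc22 proteins was not tested. Of the 10 measured carriers on the uptake list 4 rose and 2 fell (limma, 5 and 2 at an unadjusted p under 0.05). Their median was 0.15, against -0.0022 for all genes, of which 2.89% rose and 2.6% fell. Slc29a1, a nucleoside carrier that the list also holds, rose by 0.75 (SE 0.14, limma adjusted p = 0.00725). Slco1a4, an organic anion carrier of the sinusoidal membrane, rose by 0.95 (SE 0.19, adjusted p = 0.00807). Slco1a1, a related carrier typical of male liver, fell by 6.04 (SE 0.82, adjusted p = 7.01e-04), and Slco2a1, a prostaglandin carrier, fell by 0.66 (SE 0.14, adjusted p = 0.0127). The level of Slco1a1 varied widely between db/db livers (SD 2.53, against 0.19 in BKS livers). Of 10 measured exporters 5 rose and none fell (limma, 5 and 1 at an unadjusted p under 0.05), with a median of 0.44. The shares over all genes were 2.89% and 2.6%, and 8.76% and 8.87% unadjusted. They include Abcc4, an exporter of organic anions into blood (3.94, SE 0.45, adjusted p = 1.81e-04), and Slc47a1, the proton exchanger that passes organic cations on into bile (0.81, SE 0.11, adjusted p = 6.48e-04). Abcc4 was dim in BKS livers (median intensity 10.8, against 585.2 in db/db), so the size of its difference depends on the amount added before the logarithm.

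Of 17 measured regulators of liver transporters and of sex-biased genes 3 rose and 4 fell (limma, 4 and 8 at an unadjusted p under 0.05), with a median of -0.35. Over all genes 2.89% rose and 2.6% fell, and at the unadjusted threshold 8.76% were higher and 8.87% lower. Foxa1, a liver-enriched factor, fell by 2.10 (SE 0.25, limma adjusted p = 2.45e-04) and Socs2, a feedback inhibitor induced by growth hormone, by 2.67 (SE 0.45, adjusted p = 0.00324). The nuclear receptors Nr1i3 (CAR) and Nr1h4 (FXR) rose by 1.00 (SE 0.22, adjusted p = 0.0155) and 0.70 (SE 0.15, adjusted p = 0.0169). Hnf4a, which sustains the hepatocyte programme, was at -0.35 (SE 0.12, adjusted p = 0.125), and Pdzk1, a scaffold that binds the tails of membrane carriers, at -0.36 (SE 0.18, adjusted p = 0.344).

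Each gene's nearest counterparts in pattern over the 9 arrays were taken as the 3 ranked genes with the highest Pearson correlation of normalized levels, as a description. All Slc22 genes and genes with predicted or clone-derived names were left out of the ranking, so one of these could lie closer. All arrays share the contrast of the groups, which raises every r for genes that differ between them. Slc22a27 ran closest to Prune1 (r = 0.986), Mgst3, a microsomal glutathione transferase (0.986), and Gcdh, the glutaryl-CoA dehydrogenase (0.983). Slc22a26 ran closest to Ech1, a dienoyl-CoA isomerase (0.985), Pls1, a bundler of actin (0.981), and the pantetheinase Vnn1 (0.977). Slc22a7 ran closest to Myl7 (0.985), the chaperone Dnajb11 (0.980) and the kinase Dstyk (0.978). For Slc22a30 the closest were Tmem255a, Selenok and Dock4 (0.944 to 0.949), for Slc22a18 Rassf7, Map9 and Gpr149 (0.962 to 0.965), for Slc22a23 Zfp503, Smc3 and Shcbp1 (0.913 to 0.932) and for Slc22a15 Acsbg1, Nlrp5-ps and Nek11 (0.919 to 0.952). After the group means were removed, r between the 21 pairs of the 7 genes ran from -0.85 to 0.68 with a median of 0.11, and 12 of the 21 were positive. Of the genes within 2 places of a listed gene in RefSeq order, 10 outside the family were measured, at -0.91 to 1.08 on the log2 scale. None passed the threshold (limma, 3 at an unadjusted p under 0.05, against 17.6% of all genes, smallest adjusted p = 0.214 for Psmg4, a proteasome assembly chaperone beside Slc22a23).

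The median intensity of an array lay between 67.2 and 110.7, and no call of presence or absence comes with the values. Markers of hepatocytes were bright in both groups (7 measured, none called, summed intensity 187361 to 312202 in db/db and 203052 to 385039 in BKS livers). Markers of kidney proximal tubule, where many Slc22 genes are also used, summed to 289.7 to 650.0 in db/db and 194.6 to 562.5 in BKS livers, with none of 4 called. None of the measured markers of macrophages (6), stellate cells (6), endothelium (5), cholangiocytes (5), lymphocytes (4) and fat cells (3) was called at the adjusted threshold. That threshold was passed by 5.49% of all genes. At an unadjusted limma p under 0.05 there were 2 each for hepatocytes, macrophages, stellate cells, endothelium and cholangiocytes, and 0 for kidney, lymphocytes and fat cells, against 17.6% of all genes. The 2 of macrophages and the 2 of cholangiocytes were lower in db/db livers. Those of stellate cells and of endothelium were higher, and hepatocytes had 1 in each direction. Such counts do not show that the cell types were alike in the groups. Of 2 pancreas markers the elastase gene Cela1 fell by 1.45 (SE 0.24, limma adjusted p = 0.00249). The other, Cpa1, stood at 0.56 (SE 0.39, limma adjusted p = 0.517), with dim median intensities of 25.95 in db/db and 10.5 in BKS livers. The part of that list in these results was not tested.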

How the data were processed

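The table deposited by the authors holds linear intensity values, 1 for each probe set on each array, from Affymetrix arrays hybridised with biotin-labelled cRNA made from 8 µg of total RNA, per the labels' protocols. The sources used here do not give the software or the background correction. The authors had scaled each array to a mean intensity of 500.003 to 500.005 after trimming 2% at each end. Intensities were turned into log2(value + 16) and quantile normalized, because the array medians spanned 0.61 on the log2 scale. The amount added compresses the differences of dim genes.

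Each gene took its brightest probe set among the 34945 with 1 symbol (932 had several, 9160 none, 64 were controls). The fit over 18193 genes used limma 3.58.1 in R 4.3.3 (lmFit, eBayes with an intensity trend, group as the only term, two-sided) with Benjamini-Hochberg adjustment and a threshold of 0.05. Values of probe sets not picked for a gene come from the same fit over all probe sets. No filter on dim genes was applied. With a minimum intensity of 100 on at least 4 arrays all 7 genes passed, Slc22a26 and Slc22a27 only through the db/db arrays. Slc22a29, outside the 7, also passed only through the db/db arrays.

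Named were all listed Slc22 genes, the other Slc22 genes and, from each further list, the 2 called genes of smallest adjusted p in each direction. Genes up to 2 places from a listed gene in RefSeq order and the 3 genes most alike in pattern were also taken. Hnf4a, Pdzk1 and Cela1 were chosen after their values were seen, and Cpa1 was named as the other measured pancreas marker. The members and lists were chosen with earlier results of these data known. Promoters come from RefSeq (GRCm38.p6) and were aligned with Biopython 1.88 over their whole length (match 2, mismatch -1, gap -10 and -0.5, free ends). The fit was tested on simulated data of 18193 genes for db/db against BKS with 200 changed genes: it recovered 22% of genes changed 1.5-fold, 60% of those changed 2-fold and 86% of those changed 4-fold, and 8 of 141 calls were false.

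The labels number samples in both groups. Deviations from the group means of samples with equal numbers correlated at 0.03, 0.17, -0.07 and 0.13. For db/db 2 and db/db 4 the BKS sample of equal number was the best match, and for db/db 1 and db/db 3 it was not. The numbers were not taken as pairs in the main fit, and a block for replicate number was run as an alternative. Alternatives covered scaling, the amount added, a filter, probe set rules, eBayes settings, array weights, blocks for replicate number and 18S set, each 18S set alone and each array left out. The number of arrays limits the precision.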

Additional observations from a re-analysis of the deposited data

Results flagged for a closer look

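Among 42 groups of values (21 Slc22 genes in each genotype), 2 held a sample far from the rest, where chance gives about 5%. For Slc22a27 in db/db livers, db/db 3 stood at 10.27 on the log2 scale, the nearest array at 9.33, a gap of 0.951 of the group's range. For Slc22a19, a dim gene, db/db 2 stood at 6.01 (intensity 56.0) and the nearest at 4.49, a gap of 0.884. Without db/db 3 the log2 difference of Slc22a27 was 4.10.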

How the results depend on the processing

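Slc22a7, Slc22a26 and Slc22a27 kept their direction and side of the threshold in each of the 23 alternatives run. The list was selected on this contrast on these same arrays, so a kept call is no independent support. Slc22a26 and Slc22a27 passed the filter on dim genes only through the db/db arrays. The log2 differences ran from -2.79 to -1.64 for Slc22a7, 1.89 to 3.13 for Slc22a26 and 3.17 to 5.45 for Slc22a27, and with 1 array left out from -2.28 to -1.84, 2.33 to 2.74 and 4.08 to 4.63. The number of the 7 genes past the threshold was 3 in the main setting and 3 or 4 in the alternatives. Slc22a30 passed with the 18S block (-0.40) and without db/db 1 (-0.50), and Slc22a18 with the replicate block (0.57). Over all genes the replicate block gave 596 higher and 550 lower, against 526 and 473 without it, and it turned no call of Slc22a7, Slc22a26 or Slc22a27. It leaves BKS 5 without a partner. The filter on dim genes left out 9 of the other Slc22 genes.

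The counts of all genes called moved by more than 1.5 times in some settings. They were 254 higher and 212 lower without the trend, 323 and 212 with median centring, 209 and 200 on the low and 258 and 237 on the high 18S arrays alone. The lower count was 751 with the 18S block (747 higher), 273 with averaged probe sets (406 higher) and 260 with the probe set of largest variance (370 higher). Leaving out 1 array gave 312 to 518 higher and 284 to 433 lower, both lowest without db/db 3.

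The genes whose sign turned were near 0 or dim. Slc22a15 stood at 0.18 with averaged probe sets, 0.46 with the most variable one and 0.053 with the replicate block, and between -0.21 and 0.053 with 1 array left out. Slc22a12 stood at 0.025 with 1 added, 0.050 with array weights, 0.16 with the replicate block and 0.14 on the low 18S arrays (-0.37 to 0.27 with 1 array left out). Slc22a17 stood at -0.041 as deposited, -0.024 with the replicate block and -0.050 on the high 18S arrays (-0.11 to 0.21), and Slc22a8 at 0.15 with the replicate block and 0.72 on the low 18S arrays (-0.24 to 0.25). Slc22a19 and Slc22a21 stood at 0.075 and 0.46 on the low 18S arrays, Slc22a4 at 0.063 on the high ones. With 1 array left out Slc22a19 ran from -0.59 to 0.018 and Slc22a4 from -0.33 to 0.013. The call of Slc22a5 was lost with its most variable probe set (1.15, limma adjusted p = 0.0926) and on the low 18S arrays (0.72, adjusted p = 0.144, 5 arrays). Slc22a14 passed without db/db 4 (1.57, adjusted p = 0.0243). The cause of these shifts was not tested.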
